A study of Mus musculus with 24 samples.

Results

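DKO clones of mouse embryonic stem cells (ESCs), which carry indels in both Tet1 and Tet2, were compared with WT clones after 6 days without leukemia inhibitory factor (LIF). The comparison holds 5 of the 24 RNA-seq libraries of the series, and its members were taken from the labels: 2 DKO clones (rep1 and rep2) and WT clones O4.2, O4.1 and O4.13, all at day 6 (D6). Every clone descends from a single parental clone of a 129/SVj ESC line in which an IRES and eGFP follow Oct4 (Oct4:IRES:eGFP), so WT clones carry the reporter as well. Tet indels were introduced by transient transfection of Cas9 and guide RNAs followed by puromycin selection and picking of single clones. The other libraries are Tet1-/- (3 clones), Tet2-/- (2 clones) and TKO (2 clones, with Tet3 indels added) at D6 and 12 libraries of the same genotypes with LIF (D0). Values are given for DKO as rep1 then rep2 and for WT as O4.2, O4.1 then O4.13, as CPM, the count divided by the TMM-scaled library size, and fold changes are log2 of DKO over WT ± SE. The names rep1 and rep2 are those of the D6 libraries, and D0 values follow the same order by clone, so the DKO clone of rep1 is the second DKO library at D0. The clone number of rep1 was read from a D6 label that lacks its decimal point.

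TET proteins oxidize 5-methylcytosine to 5-hydroxymethylcytosine and further products, which starts active DNA demethylation. Tet1 and Tet2 are the members that ESCs express most, and Tet3 is known from the oocyte and from differentiating cells. LIF acts through STAT3 to hold ESCs in the pluripotent state, and without it the cells leave that state toward the germ layers.

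The guide RNAs and the alleles of the DKO clones show what was changed in the genome. The Tet1 window lies on the minus strand, as the gene does, at chr10:62296283-62296317 (mm9), with 32 of its 35 bases in a coding exon (chr10:62296286-62296376) and the other 3 in the intron that follows; this exon is part of 3 of the 7 Tet1 transcripts of GENCODE vM1. The Tet2 window lies on the minus strand at chr3:133148610-133148641 (mm9), with all 32 bases in a coding exon (chr3:133148476-133151635). In both reference windows, the 20-base guide starts at base 3 and the capitals mark the PAM.
Tet1 reference window: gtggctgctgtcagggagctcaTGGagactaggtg
Tet2 reference window: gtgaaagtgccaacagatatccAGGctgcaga
In the alleles, capitals mark the deleted bases. The study numbers the DKO clones 1 and 2 and does not tie these numbers to rep1 and rep2.
Clone 1, Tet1 allele 1: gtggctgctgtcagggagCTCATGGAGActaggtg
Clone 1, Tet1 allele 2: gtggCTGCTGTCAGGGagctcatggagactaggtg
Clone 1, Tet2 allele 1: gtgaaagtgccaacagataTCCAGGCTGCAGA
Clone 2, Tet1 allele 1: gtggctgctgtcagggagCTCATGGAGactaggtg
Clone 2, Tet2 allele 1: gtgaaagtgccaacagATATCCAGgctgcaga
Clone 2, Tet2 allele 2: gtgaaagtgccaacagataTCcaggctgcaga
The Tet1 deletions shown span 10, 12 and 9 bases, and the second Tet1 allele of clone 2 lost all 35 bases of the window, so its full length is not known from it. The 12-base deletion of clone 1 and the 9-base deletion of clone 2 are multiples of 3 in length, so these 2 Tet1 alleles need not shift the reading frame. The study reports loss of protein by Western blot. The Tet2 deletions span at least 13 bases (to the end of the window), 8 bases and 2 bases, the last of them together with 4 substitutions, and the second Tet2 allele of clone 1 gained 1 base.

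The 5 libraries held 18400463 to 34219640 counts, and a gene without a count in a library may still stand at up to 0.0868 to 0.161 CPM there (3 counts, counting error only). With edgeR's quasi-likelihood test over the 12 D6 libraries, 15435 genes were tested and 0 (0%) passed an adjusted p-value under 0.05 with a change over 2-fold. The smallest adjusted p-value was 0.144, shared by 5 genes. At an unadjusted p-value under 0.05, 1070 genes (6.93%) were higher and 1181 (7.65%) lower in DKO, and of these 396 (2.57%) and 400 (2.59%) differed by more than 2-fold. DESeq2 called 99 genes higher and 86 lower in DKO, and limma's voom with a weight per genotype called 43 and 37. Both DKO libraries lay above all WT libraries in 2859 genes (18.5%) and below all of them in 2891 genes (18.7%). A gene is therefore described below as standing higher or lower by its values in the 5 libraries, and none passed edgeR's adjusted test against WT in the fit over the 12 D6 libraries. Of the 126 genes that the naming rules chose, DESeq2 called 53 by its own adjusted p-value, such as Vegfa, Gfpt2, Ptch1, Ido2, Rnf17 and Scin, which voom with weights called too. Outside the germline and 2-cell-like lists, the list members named here that DESeq2 called were Dnmt3l and Nodal (higher) and Hand1, Tbx20, Tbx3, Hnf4a, Col1a1, Pdgfrb, Pth1r, Ncam1, Mest, Bmp7, Smad6, Sfrp1 and Ccnd2 (lower). Where members of a gene list are counted as higher or lower, this is at an unadjusted p-value under 0.05, to be read against the 6.93% and 7.65% of all genes.

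The WT clones differed from each other more than the DKO clones did. More than 2-fold differences between single libraries were found in 75 genes for the 2 DKO clones, in 132 genes for WT O4.1 and O4.13, and in 1073 and 730 genes for WT O4.2 against O4.1 and O4.13. The biological coefficient of variation was 0.109 in DKO and 0.215 in WT. Without WT O4.2, 6 genes were called higher (Mael, a repressor of transposons in the germline, and Rnf17, a tudor protein of male germ cells, among them) and 0 lower. All clones come from 1 parental line, so p-values measure the spread between clones.

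**Figure D1:**
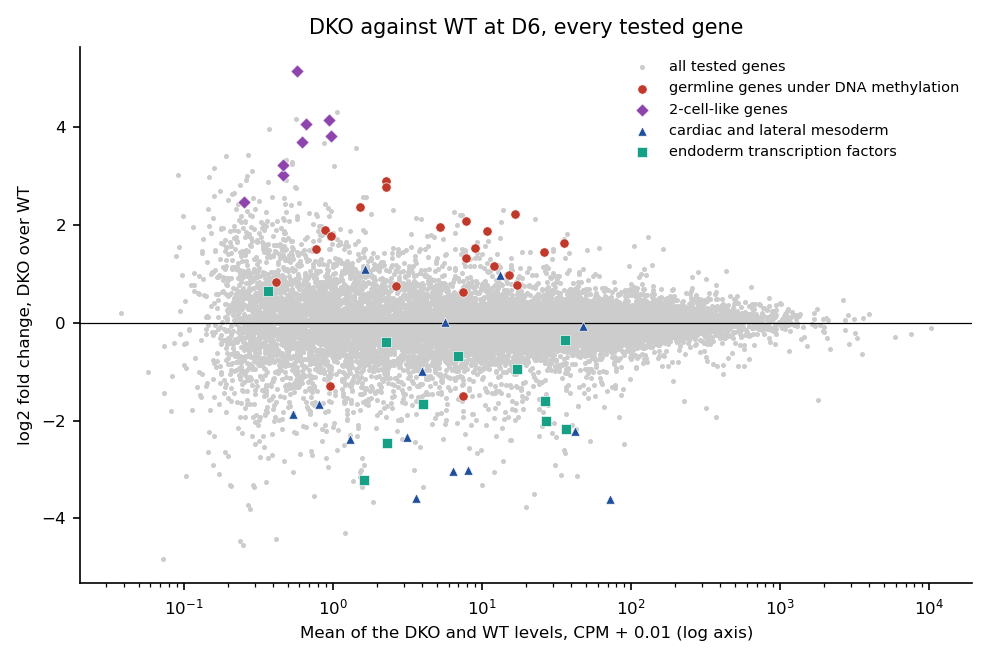
Each point is 1 of the 15435 tested genes, with the mean of its DKO and WT levels (CPM + 0.01, log axis) on the horizontal axis and log2 of DKO over WT at D6 on the vertical axis. Germline genes (red) lie mostly above the line, as do the 2-cell-like genes (purple) that passed the count filter, which favours genes high in 1 group. Cardiac and lateral mesoderm genes (blue) and endoderm transcription factors (green) lie mostly below it, while the median of all genes is -0.01.

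Tet1 transcript measured 86.2 and 167 CPM in DKO and 134, 121 and 114 CPM in WT. The DKO clones lay on either side of all WT clones, and the log2 fold change was 0.04 ± 0.51 (adjusted p = 0.978, edgeR). Tet2 measured 6.10 and 10.6 CPM in DKO and 17.1, 13.7 and 13.0 CPM in WT. Both DKO clones stood below all WT clones, with a log2 fold change of -0.80 ± 0.26 (adjusted p = 0.231, edgeR). Tet2 was also lower in DKO at D0, where it measured 21.0 and 52.3 CPM against 89.0, 88.9 and 83.4 CPM in WT. Tet3, which was not targeted in DKO, measured 14.0 and 14.2 CPM against 14.3, 20.5 and 22.1 CPM. Reads from the rest of the transcript are counted whether or not a short indel is present, so these levels are no check of the genotype.

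The 12 genes per direction with the smallest p-values were taken among those that differed over 2-fold, had a mean of at least 1 CPM in DKO or in WT and did not overlap between the groups. Those at the top had higher levels in DKO. Fam181b, a gene of the developing nervous system, measured 3.96 and 4.06 CPM in DKO and 1.48, 1.24 and 1.64 CPM in WT (log2 fold change 1.45 ± 0.22, adjusted p = 0.144, edgeR). Ido2, an enzyme of tryptophan breakdown, measured 14.1 and 10.3 CPM against 1.91, 3.44 and 2.58 CPM (log2 fold change 2.22 ± 0.33). For Fam181b and Ido2 both DKO clones lay above every WT clone, and the WT clones lay close together. Shisa6, an auxiliary protein of glutamate receptors, measured 5.79 and 6.09 CPM against 1.36, 1.08 and 1.54 CPM. Adad1, a testis-expressed protein with a double-stranded RNA binding domain, measured 1.68 and 1.40 CPM against 0.389, 0.269 and 0.235 CPM, with raw counts of 58 and 40 against 10, 5 and 7. These 4 are among the genes that share the smallest adjusted p-value. Also among the 12 highest-ranked were Scin, Rnf17, Zfp36l3, Tlr2, Lipo1, Pramel1 and Thbs4, and over the 12 the log2 fold change ranged from 1.18 to 2.36 (adjusted p 0.144 to 0.171, edgeR). Rnf17 was the most abundant of them, at 96.1 and 86.8 CPM in DKO and 44.6, 26.6 and 23.1 CPM in WT, with WT O4.2 nearest to DKO.

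Among the 12 highest-ranked genes with lower levels in DKO were genes of growth factor, Hedgehog and chemokine signals and of metabolism. Vegfa, the vascular growth factor, measured 14.8 and 10.2 CPM in DKO and 36.0, 43.0 and 30.4 CPM in WT (log2 fold change -1.55 ± 0.25, adjusted p = 0.153, edgeR). Egln3, a prolyl hydroxylase that marks HIF subunits for breakdown, measured 33.9 and 25.1 CPM against 84.6, 65.1 and 74.6 CPM (log2 fold change -1.34 ± 0.24). Ndufa4l2, a mitochondrial protein, measured 1.85 and 2.204 CPM against 10.6, 5.97 and 6.74 CPM (log2 fold change -1.94 ± 0.38). The groups did not overlap in any of these genes, as the rule that picked them required, and WT O4.2 was not the lowest WT clone in any of them. Gfpt2, an enzyme of the hexosamine pathway, measured 47.7 and 44.2 CPM against 104, 108 and 119.7 CPM, a log2 fold change of -1.26 ± 0.22. Ptch1, the receptor of Hedgehog ligands, measured 34.9 and 33.7 CPM against 79.9, 69.0 and 60.1 CPM. Ackr3, a scavenging chemokine receptor, measured 6.08 and 6.47 CPM against 17.0, 21.2 and 20.6 CPM. Kif26a, Slc2a4, Dpf3, D630045J12Rik, Helz2 and Pcsk1n complete the 12, whose log2 fold changes ranged from -1.02 to -2.70 (adjusted p 0.153 to 0.171, edgeR).

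**Figure D2:**
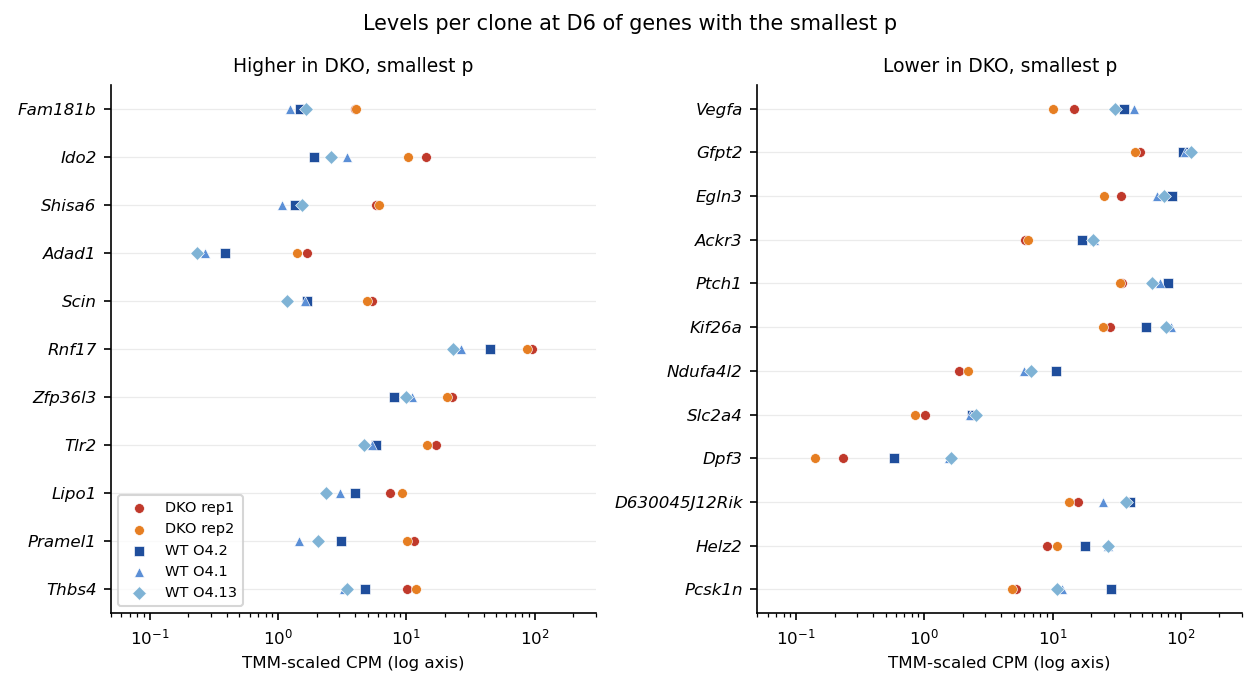
Level of 23 of the highest-ranked genes per clone in TMM-scaled CPM (log axis), with DKO clones as red and orange circles and WT clones as blue squares, triangles and diamonds. In all 23 genes the DKO points stand apart from the WT points, as the rule that picked the genes required.

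Genes of the germline that DNA methylation is known to silence in somatic cells stood higher in DKO. Of 23 listed, 22 passed the count filter, and 16 of these were higher and 0 lower at an unadjusted p-value under 0.05, beside 6.93% of all tested genes that were higher. In 17 of the 22 both DKO clones lay above all WT clones (18.5% of all genes), and the median log2 fold change was 1.53 against -0.01 over all genes. Brdt, a bromodomain protein of the testis, measured 4.25 and 3.81 CPM in DKO and 0.740, 0.161 and 0.637 CPM in WT (log2 fold change 2.91 ± 0.61, adjusted p = 0.171, edgeR). Mael measured 29.8 and 25.9 CPM against 11.4, 2.96 and 3.35 CPM (log2 fold change 2.23 ± 0.50). Mov10l1, an RNA helicase of the piRNA pathway, measured 12.7 and 12.7 CPM against 4.44, 1.99 and 2.45 CPM (log2 fold change 2.09 ± 0.44). For Mael and Mov10l1 the DKO clones agreed closely and WT O4.2 lay between them and the other WT clones. Ddx4, the germ cell RNA helicase also called Vasa, was the most abundant, at 47.4 and 61.0 CPM against 22.9, 15.4 and 13.9 CPM (log2 fold change 1.64 ± 0.34). The 2 genes with a fold change in the other direction were Smc1b, a cohesin subunit of meiosis, at 6.02 and 1.85 CPM against 25.7, 2.097 and 5.74 CPM, and Stra8, a gatekeeper of meiosis, at 0.723 and 0.385 CPM against 3.54, 0.0538 and 0.436 CPM. Both were highest in WT O4.2 and overlapped between the groups.

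WT O4.2 held more of these transcripts than the other WT clones. Summed over the list, the level was 283 and 266 CPM in DKO and 184, 66.2 and 78.6 CPM in WT, and O4.2 was the highest WT library in 15 of the 16 genes. Over all genes that were higher in DKO at this p-value, O4.2 was the highest WT library in 53.8%. With 1 library left out at a time, the list's median log2 fold change ran from 1.24 (without WT O4.1) to 2.24 (without O4.2), with 12 to 18 members higher. Without WT O4.1, 1 member was lower. Under DESeq2, 9 members were called (Brdt, Ddx4, Mael, Mov10l1, Piwil2, Rpl10l, Stk31, Taf7l and Tdrd1), and under voom with a weight per genotype 6 of them.

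The promoters of these genes are shown because the list was chosen for control by DNA methylation, which acts on CpG. The 250 bases before the start of the 4 germline genes with the smallest p-values follow (RefSeq, GRCm38.p6), with every CpG in capitals.
Brdt, chr5:107330944-107331193, plus strand: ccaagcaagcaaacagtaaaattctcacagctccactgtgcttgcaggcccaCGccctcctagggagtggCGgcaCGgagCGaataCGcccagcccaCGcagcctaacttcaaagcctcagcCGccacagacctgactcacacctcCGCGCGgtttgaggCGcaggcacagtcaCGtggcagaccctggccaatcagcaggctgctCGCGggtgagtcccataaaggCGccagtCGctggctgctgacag
Mael, chr1:166238745-166238994, minus strand: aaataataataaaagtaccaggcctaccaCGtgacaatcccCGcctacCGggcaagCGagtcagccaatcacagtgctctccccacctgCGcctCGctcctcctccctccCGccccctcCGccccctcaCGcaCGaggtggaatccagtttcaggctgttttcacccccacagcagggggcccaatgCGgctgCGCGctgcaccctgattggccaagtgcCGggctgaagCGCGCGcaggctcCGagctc
Mov10l1, chr15:88982744-88982993, plus strand: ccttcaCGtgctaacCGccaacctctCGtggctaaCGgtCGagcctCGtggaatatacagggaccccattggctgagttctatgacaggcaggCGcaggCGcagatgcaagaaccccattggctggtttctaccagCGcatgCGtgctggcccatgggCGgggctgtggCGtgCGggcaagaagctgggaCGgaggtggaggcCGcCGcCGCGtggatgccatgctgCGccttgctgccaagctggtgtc
Ddx4, chr13:112652311-112652560, minus strand: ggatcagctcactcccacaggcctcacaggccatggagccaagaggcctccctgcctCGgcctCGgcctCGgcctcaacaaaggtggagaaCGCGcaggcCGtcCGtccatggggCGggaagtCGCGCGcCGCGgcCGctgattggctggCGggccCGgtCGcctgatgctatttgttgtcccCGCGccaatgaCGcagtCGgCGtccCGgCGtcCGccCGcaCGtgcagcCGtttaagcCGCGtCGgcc
They hold 16, 18, 19 and 31 CpGs. RefSeq windows were found for 22 of the 23 listed genes (26 windows, Piwil2 had none), and these held 3 to 31 CpGs with a median of 15.5, against a median of 6 over 32851 windows of the same length. The letters CACGTG, which read the same on both strands and contain a CpG, occurred in 14 of the 26 windows and in 6.02% of all windows, or in 11 of the 22 genes and 6.86% of all genes. The letters GGCGGGAA, which also contain a CpG and were searched on both strands, occurred in 3 of the 26 and in 1.86% of all, or in 2 genes and 2.13% of all genes. Some genes have several start sites and so overlapping windows. Both searches describe these letters only.

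Genes of the 2-cell-like state, which marks a rare and transient population in ESC cultures, were at low levels throughout. Of 14 listed, 8 passed the count filter, and since a gene can pass through the libraries in which it is high, no count over these 8 is given as a result. Zscan4c, a telomere-associated zinc finger protein, had 34 and 37 counts in DKO and 0, 4 and 2 in WT, or 0.984 and 1.29 against 0, 0.215 and 0.0671 CPM. Zscan4d had 50 and 62 counts against 4, 3 and 2. Tcstv3, another gene of this state, had 16 and 50 counts against 0, 0 and 2, and Usp17la, a deubiquitinase, had 35 and 73 against 3, 2 and 2. Every DKO library was above every WT library for these 4 genes, with the WT libraries at 0 to 4 counts. They were picked by p-value among the genes that passed the filter, so this separation is not read as a result. These genes belong to families of near-identical copies, so reads may have been split between copies. At D0, before LIF was withdrawn, both DKO clones already lay above all WT clones for Zscan4d (2.97 and 5.59 CPM against 1.10, 0.918 and 1.80 CPM), Usp17la (1.25 and 2.21 CPM against 0.822, 0.535 and 0.697 CPM) and Tcstv3 (0.556 and 1.04 CPM against 0.509, 0.115 and 0.410 CPM). Zscan4c overlapped there, at 0.973 and 2.38 CPM in DKO and 1.02, 0.497 and 1.39 CPM in WT.

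Among the best known pluripotency factors, Nanog and Sox2 overlapped between the groups, while Pou5f1 and Sall4 did not. Pou5f1 (Oct4) measured 304 and 362 CPM in DKO and 287, 221 and 231 CPM in WT, with both DKO clones above all WT clones and a log2 fold change of 0.43 ± 0.28 (adjusted p = 0.486, edgeR). At D0 it had measured 677 and 693 CPM in DKO and 659, 810.1 and 805 CPM in WT. Nanog measured 442 and 334 CPM against 512, 220.3 and 303 CPM, and Sox2 218 and 226 CPM against 413, 142 and 146 CPM. In both genes WT O4.2 was the highest of all 5 libraries and the groups overlapped. The interval of the log2 fold change ran from -0.48 to 0.82 for Nanog and from -1.11 to 0.96 for Sox2, so differences in either direction within these bounds are compatible with the values. Sall4, a zinc finger factor of ESCs, measured 267 and 303 CPM against 325, 440.3 and 361 CPM (log2 fold change -0.40 ± 0.13), with both DKO clones below all WT clones.

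Some genes linked to pluripotency stood higher in DKO. Of 12 listed core genes, 4 were higher and 1 lower at an unadjusted p-value under 0.05, with a median log2 fold change of 0.30. Dppa2 and Dppa4, DNA-binding partners that act on developmental promoters, measured 30.8 and 44.0 CPM against 14.9, 5.27 and 5.37 CPM and 49.6 and 53.9 CPM against 31.6, 15.0 and 15.5 CPM (log2 fold changes 2.13 ± 0.59 and 1.32 ± 0.42). WT O4.2 was nearest to DKO for both. The others were L1td1, an RNA-binding protein of ESCs (347 and 419.9 CPM against 235, 180.4 and 146 CPM), and Tdgf1, the co-receptor of Nodal (553 and 552 CPM against 425, 375 and 325 CPM). Of 16 naive pluripotency genes, 1 was higher (Fbxo15, log2 fold change 1.11 ± 0.35) and 1 lower (Tbx3, -1.39 ± 0.45), and the median was 0.05. With 1 library left out at a time, the median of the core list ran from 0.16 (without WT O4.1) to 0.64 (without WT O4.2) with 3 to 7 members higher, and that of the naive list from -0.28 to 0.69, again without WT O4.1 and O4.2, with 1 to 4 higher. The naive genes summed to 1243 and 1298 CPM in DKO and to 1588, 551 and 721 CPM in WT, so the DKO clones lay between O4.2 and the other WT clones. Among 13 formative and primed epiblast genes 1 was higher (Sox3) and 1 lower (Dnmt3a), with a median of 0.03. Among 9 genes of LIF and STAT3 signalling 0 were higher and 1 lower, Lifr, the LIF receptor, at 7.55 and 9.06 CPM against 13.9, 17.3 and 18.4 CPM (log2 fold change -0.99 ± 0.22).

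Of 27 genes of DNA methylation and demethylation, 1 was higher and 6 lower at an unadjusted p-value under 0.05. The number lower was 2 without DKO rep1 and 3 without DKO rep2 or without WT O4.1. The higher one was Dnmt3l, the cofactor of the de novo DNA methyltransferases, at 182 and 221 CPM in DKO and 67.6, 49.5 and 61.1 CPM in WT (log2 fold change 1.76 ± 0.43, adjusted p = 0.189, edgeR). All WT clones, O4.2 included, lay far below both DKO clones. At D0 the order was not the same, with 198 and 195 CPM in DKO and 236, 249 and 237 CPM in WT. Dnmt3a, a de novo methyltransferase, measured 147 and 142 CPM against 192, 161 and 180.3 CPM (log2 fold change -0.30 ± 0.10), and Cxxc5, a CpG-binding protein, 97.4 and 105 CPM against 108, 152 and 137 CPM. Dnmt1, the maintenance enzyme, measured 234 and 253 CPM against 249, 284 and 279.8 CPM, and Dnmt3b 759 and 702 CPM against 748, 817 and 595 CPM, with groups that overlapped.

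Genes of cardiac and lateral mesoderm stood lower in DKO. In bulk RNA, fewer cells of a type and less RNA per cell cannot be told apart. Of 16 listed genes 14 were tested, and of these 9 were lower and 1 higher at an unadjusted p-value under 0.05 (7.65% and 6.93% of all genes), and the median log2 fold change was -2.03. Hand1, a basic helix-loop-helix factor of lateral mesoderm, heart and trophoblast, measured 9.17 and 12.9 CPM in DKO and 41.0, 132 and 232 CPM in WT (log2 fold change -3.61 ± 0.99, adjusted p = 0.203, edgeR). Tbx20, a T-box factor of the heart, measured 1.39 and 1.40 CPM against 3.43, 13.4 and 17.2 CPM (log2 fold change -3.02 ± 0.84). Both DKO clones were below all WT clones, and among the WT clones O4.2 was by far the lowest. Myl7, the atrial myosin light chain, measured 2.89 and 2.48 CPM against 4.98, 5.22 and 5.67 CPM, with the WT clones close together. The gene counted as higher was Hopx, a homeodomain-only protein of cardiac progenitors, at 22.6 and 12.7 CPM against 10.04, 7.31 and 9.32 CPM. Nkx2-5, a homeobox factor of cardiac progenitors, also had both DKO clones above all WT clones, at 1.504 and 2.97 CPM against 0.818, 1.08 and 1.21 CPM (log2 fold change 1.10 ± 0.57).

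The primitive streak genes were less far apart. All 12 had a log2 fold change below 0, with a median of -0.86, but only Fgf8 and Mesp1 were lower at an unadjusted p-value under 0.05. With WT O4.13 left out, the median was -0.45. T (Brachyury), the marker of the streak and nascent mesoderm, measured 101 and 148 CPM in DKO and 82.8, 147 and 173 CPM in WT, with groups that overlapped (log2 fold change -0.11 ± 0.55). Mesp1, which marks the earliest cardiac mesoderm, measured 1.71 and 5.21 CPM against 9.65, 26.5 and 36.7 CPM (log2 fold change -2.82 ± 1.09). Fgf8 measured 58.3 and 52.9 CPM against 72.0, 125 and 119 CPM. In the endothelium and blood list, Kdr, the VEGF receptor of endothelium and mesoderm, measured 3.76 and 14.2 CPM against 21.8, 86.7 and 125 CPM (log2 fold change -3.12 ± 1.07), and 3 of 15 tested members were lower and 0 higher. This list summed to 105 and 111 CPM in DKO and to 153, 225 and 238 CPM in WT, Emcn was at 0 counts in all 5 libraries, and its part in other differences was not tested.

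Endoderm transcription factors summed to 77.9 and 105.5 CPM in DKO and to 97.6, 381 and 215 CPM in WT, with DKO rep2 above WT O4.2. Of 11 tested, 5 were lower and 0 higher at an unadjusted p-value under 0.05, with a median log2 fold change of -1.61. Gata6, which drives endoderm, measured 8.30 and 13.2 CPM in DKO and 17.6, 63.2 and 49.4 CPM in WT (log2 fold change -2.01 ± 0.70, adjusted p = 0.256, edgeR). Cxcr4, a chemokine receptor of definitive endoderm, measured 9.34 and 17.6 CPM against 23.9, 90.8 and 66.5 CPM. Hnf4a, a nuclear receptor of visceral endoderm and liver, measured 0.174 and 0.455 CPM against 0.545, 5.54 and 2.72 CPM. In all of these genes WT O4.2 was the WT clone nearest to DKO. Without DKO rep1 0 of the 11 were lower, and without WT O4.1 the median was -0.82. Effectors of visceral and parietal endoderm did not follow, with 1 of 17 tested (20 listed) higher (Lrp2, the endocytic receptor megalin, 510.1 and 439 CPM against 311, 246 and 269 CPM), 2 lower (Pth1r and Lama1) and a median of 0.02. With 1 library left out, 0 to 3 of these were higher and 1 to 4 lower, the most of each without WT O4.2.

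Mesenchymal genes were mixed. Of 19, 6 were lower and 2 higher at an unadjusted p-value under 0.05. Col1a1, a chain of type I collagen, measured 25.4 and 29.3 CPM in DKO and 57.2, 126 and 274 CPM in WT (log2 fold change -2.48 ± 0.61), and Pdgfra, a growth factor receptor of mesoderm, 7.93 and 11.8 CPM against 22.9, 86.2 and 78.0 CPM. Fn1 (fibronectin) was abundant, at 695 and 1125 CPM against 1582, 2889 and 3701 CPM (log2 fold change -1.58 ± 0.56). The list summed to 1239.7 and 1722 CPM in DKO and to 2151, 4086 and 5138 CPM in WT, with O4.2 between DKO and the other WT clones. The higher members were Lum and Dcn, small proteoglycans, at 0.752 and 1.19 CPM against 0.234, 0.215 and 0 CPM and 0.492 and 0.770 CPM against 0.428, 0.215 and 0.201 CPM, levels at which few counts were seen. Of 13 smooth muscle genes 1 was higher (Myl9, a myosin light chain, log2 fold change 0.61 ± 0.17) and 1 lower (Prdm6, a transcriptional repressor of vascular smooth muscle, at 2.60 and 4.69 CPM against 11.5, 51.7 and 60.5 CPM).

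The lists for the remaining cell types the culture could hold were as follows. Of 17 trophectoderm genes, 14 had a fold change below 0, and 5 were lower and 0 higher at an unadjusted p-value under 0.05 (Hand1 and Fgfr2, which other lists hold too, among them), and they summed to 1143 and 1403 CPM in DKO and to 1047, 2187 and 2071 CPM in WT. The number lower was 6 without WT O4.2 and 3 with any other library left out. Cdx2, the trophectoderm factor that is also active in posterior mesoderm, measured 3.39 and 8.54 CPM against 3.62, 16.3 and 27.4 CPM and its groups overlapped. Of 14 tested neuroectoderm genes (19 listed), 1 was higher and 2 lower. Ncam1, a cell adhesion molecule, measured 2.72 and 4.72 CPM against 8.18, 16.9 and 15.4 CPM, while Nkx6-1 and Olig3 were under 1 CPM in every library. Of 10 neural crest genes, 3 were higher (Erbb3, Sox10 and Ngfr) and 3 lower (Msx1, Msx2 and Pax7). The number lower was 0 without DKO rep1, 5 without WT O4.2 and 2 with any other library left out, and 1 was higher without WT O4.1. Msx2, a homeobox target of BMP signals, measured 8.22 and 11.9 CPM against 23.4, 64.1 and 95.9 CPM (log2 fold change -2.61 ± 0.79). What share these cell types have in the other differences was not tested.

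The largest fold changes at an unadjusted p-value under 0.05 were also looked at among genes with a mean of at least 1 CPM in DKO or in WT. Hand2, the partner of Hand1 in the heart, measured 0.318 and 0.805 CPM in DKO and 1.52, 7.80 and 10.7 CPM in WT, and Cd93, a receptor of endothelium, 0.116 and 0.105 CPM against 0.818, 4.36 and 1.71 CPM. Shh (Sonic hedgehog) measured 0.0868 and 0.140 CPM against 0.584, 2.74 and 0.805 CPM. Amer3, a membrane-associated partner of APC, was more abundant, at 2.52 and 2.90 CPM against 10.9, 42.6 and 56.6 CPM (log2 fold change -3.76 ± 1.13, adjusted p = 0.224, edgeR). Together with Hand1 and Hoxb2 these are the 6 genes with the largest fold changes toward lower levels under this rule. Every WT clone was above both DKO clones in all 6, with O4.2 the lowest WT clone. Toward higher levels, the 6 were Tcstv3, Usp17lb, Gm13119, Usp17la, Gm8300 and Zscan4d, and of these Gm13119, a predicted gene, measured 1.01 and 1.12 CPM against 0.117, 0.0538 and 0 CPM.

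Without WT O4.2 some of the cell type lists stood further from 0 and others nearer to it. The median log2 fold change was then -2.42 for cardiac and lateral mesoderm (10 members lower), -2.01 for endoderm transcription factors (7 lower), -1.09 for the primitive streak (4 lower) and -0.53 for mesenchyme (7 lower). It was -0.31 for endothelium and blood (4 lower) and -0.55 for trophectoderm (6 lower), against -0.58 and -0.62 with all WT clones. Neuroectoderm and neural crest were at -0.15 and -0.65, and smooth muscle and visceral and parietal endoderm at -0.05 and -0.02. The medians of endothelium and blood and of trophectoderm were nearer to 0 with any 1 library left out, at -0.47 to -0.17 and -0.61 to -0.52. The count filter was run again each time, so the tested members could change. Without WT O4.13 the medians of endothelium and blood and of mesenchyme were -0.17 and -0.12. O4.2 was the lowest WT library in 62.2% of all genes that were lower in DKO at an unadjusted p-value under 0.05, and in 9 of 9 such genes of the cardiac list. Without DKO rep1 fewer members were lower, with 3 of the cardiac list, 0 of the endoderm factors, 0 of endothelium and blood, 1 of the primitive streak and 3 of mesenchyme.

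**Figure D3:**
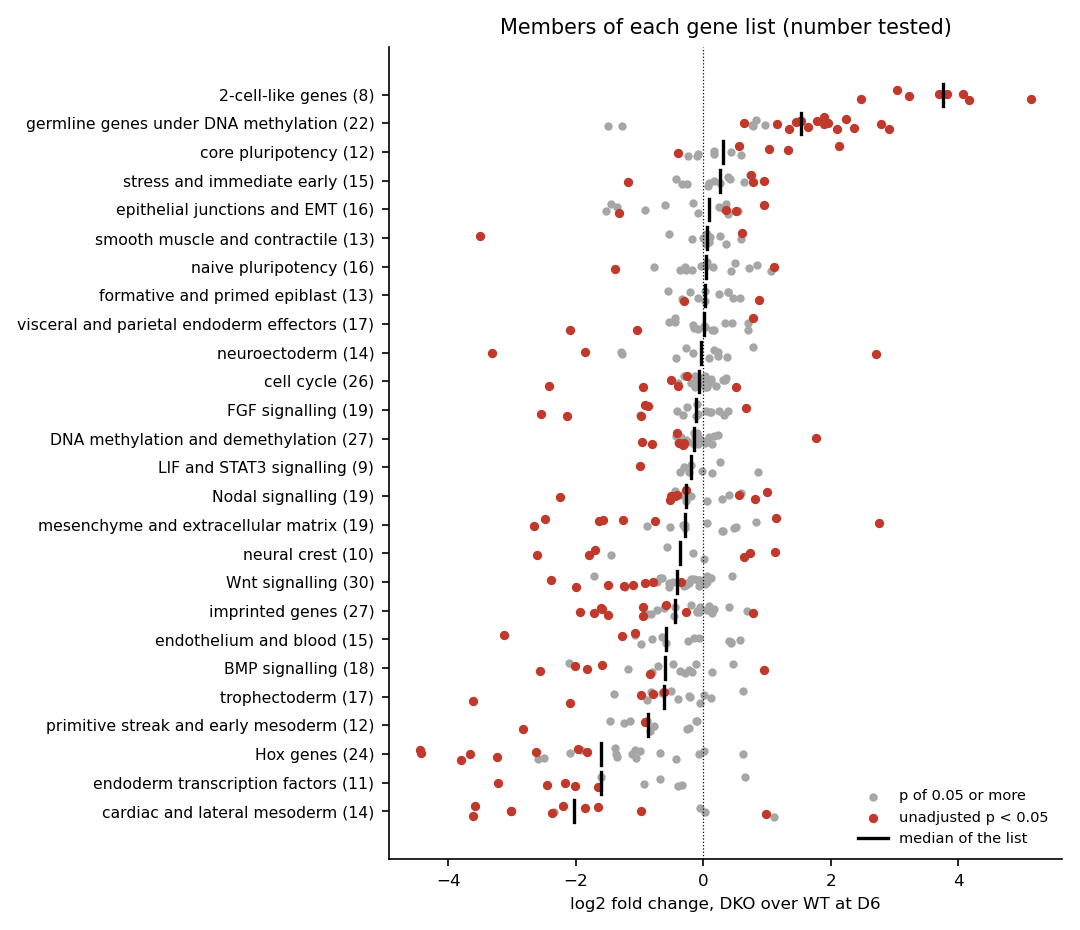
Each point is 1 tested member of a gene list, placed by its log2 fold change (DKO over WT at D6), in red where the unadjusted p-value is under 0.05, with a black bar at the median of the list. Apart from the 2-cell-like row, the medians of the lists run from -2.03 (cardiac and lateral mesoderm) to 1.53 (germline). The 2-cell-like and Hox rows hold only the 8 of 14 and 24 of 39 genes that passed the count filter, which favours genes that are high in 1 group, and their medians are not read as results. Other rows also hold tested members only, such as 15 of 21 for endothelium and blood and 14 of 19 for neuroectoderm.

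Hox genes, which pattern the body axis, were barely expressed. Of 39, 24 passed the count filter, some of them only through the libraries in which they are high, so no count over these 24 is given as a result. Hoxc4 measured 0.318 and 0.455 CPM in DKO and 1.25, 1.61 and 1.27 CPM in WT (log2 fold change -1.82 ± 0.43). Hoxb4 measured 0.145 and 0.245 CPM against 0.623, 1.61 and 1.41 CPM, and Hoxb6 had 1 and 1 counts in DKO and 10, 21 and 25 in WT. Hoxb2, the most abundant of these 4 in WT O4.1 and O4.13 only, measured 0.289 and 0.245 CPM against 0.973, 4.41 and 4.93 CPM. Both DKO clones were below all WT clones in these genes, which were picked by p-value or fold change among those that passed the filter.

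Imprinted genes, which are expressed from 1 parental allele, held 9 members that were lower and 1 that was higher at an unadjusted p-value under 0.05 among 27 tested, while 20 fold changes were below 0 and 7 above. The 9 became 2 without DKO rep1 and 13 without WT O4.2. Igf2, the fetal growth factor, measured 133 and 179 CPM in DKO and 265, 828 and 688 CPM in WT (log2 fold change -1.93 ± 0.62, adjusted p = 0.235, edgeR). H19, the noncoding RNA that shares control regions with Igf2 and is expressed from the other allele, measured 42.8 and 17.5 CPM against 53.8, 61.0 and 142 CPM (log2 fold change -1.50 ± 0.55). Igf2 and H19 thus stood lower side by side. Mest, a hydrolase-like protein of mesoderm, measured 108 and 117 CPM against 166, 409 and 449.6 CPM, and Phlda2, a brake on placental growth, 23.1 and 38.5 CPM against 55.7, 90.9 and 156 CPM. Plagl1, a zinc finger factor, stood higher, at 19.4 and 23.5 CPM against 9.54, 13.0 and 15.1 CPM. Meg3, a maternally expressed noncoding RNA, measured 71.3 and 41.6 CPM against 37.3, 67.8 and 53.8 CPM, and Snrpn 267 and 321 CPM against 269, 200.4 and 195 CPM. In all 9 lower genes O4.2 was the lowest WT library.

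Ligands and effectors of the signals that pattern the epiblast differed in both directions. In the Nodal pathway, 3 of 19 genes were higher and 6 lower at an unadjusted p-value under 0.05. The number lower was 3 without DKO rep1, 1 without DKO rep2 and 4 without WT O4.1, and 2 to 4 were higher with 1 library left out. Nodal, the ligand, measured 161 and 149 CPM in DKO and 56.9, 89.2 and 87.0 CPM in WT (log2 fold change 1.00 ± 0.22, adjusted p = 0.171, edgeR). Tdgf1 and Lefty2, a Nodal target and inhibitor (128 and 177 CPM against 98.8, 94.0 and 69.3 CPM), stood higher as well. The lower genes included the receptor Acvr2b (30.8 and 24.3 CPM against 39.4, 37.3 and 42.4 CPM) and the transducer Smad3 (60.9 and 54.4 CPM against 73.1, 90.9 and 81.6 CPM). For Nodal all WT clones were far below DKO, with O4.2 the farthest.

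In the BMP pathway, 5 of 18 genes were lower and 1 higher. The ligands Bmp4 and Bmp7 measured 9.23 and 12.8 CPM against 25.3, 48.6 and 58.6 CPM and 9.49 and 9.17 CPM against 22.9, 33.6 and 27.9 CPM (log2 fold changes -2.01 ± 0.66 and -1.59 ± 0.36). Smad6, an inhibitor that BMP induces, measured 11.1 and 11.7 CPM against 18.1, 40.5 and 62.0 CPM. Id2, also a BMP target, stood higher, at 66.8 and 81.5 CPM against 35.5, 40.1 and 39.2 CPM. Without WT O4.2, 12 members of this list were lower, and without DKO rep1 2 were.

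In the Wnt pathway, 8 of 30 genes were lower and 0 higher at an unadjusted p-value under 0.05, and 25 fold changes were below 0 and 5 above. With either DKO clone left out 2 genes were lower, and without WT O4.2 10 were. The receptor Fzd7 measured 231 and 245 CPM in DKO and 404, 439.7 and 390.0 CPM in WT, and the secreted inhibitor Sfrp1 31.9 and 32.2 CPM against 56.8, 97.2 and 53.1 CPM (log2 fold change -1.11 ± 0.26). Rnf43, a ligase that removes Wnt receptors, measured 4.95 and 4.09 CPM against 7.51, 9.14 and 8.92 CPM. Axin2, a common readout of the pathway, measured 54.5 and 64.2 CPM against 42.8, 56.5 and 85.8 CPM and its groups overlapped. In the FGF pathway, 5 of 19 were lower and 1 higher. With either DKO clone left out 2 were lower, without WT O4.1 or O4.13 3 were, and the number higher ran from 0 (without DKO rep2) to 3 (without WT O4.2). Fgfr2, a receptor, measured 22.1 and 19.5 CPM against 46.3, 39.3 and 37.9 CPM (log2 fold change -0.98 ± 0.18, adjusted p = 0.153, edgeR), while Dusp6, a phosphatase that FGF signals induce, measured 153 and 193 CPM against 107, 113 and 106 CPM.

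Of 16 genes of junctions and epithelial-mesenchymal transition (EMT), 3 were higher and 1 lower at an unadjusted p-value under 0.05, and 8 fold changes were above 0 and 8 below. Without WT O4.2 4 were higher and 4 lower, without WT O4.13 1 was higher, and without DKO rep2 or WT O4.1 0 were lower. Ocln (occludin) measured 42.6 and 45.0 CPM in DKO and 25.0, 26.6 and 16.4 CPM in WT (log2 fold change 0.96 ± 0.21), and Cdh1 (E-cadherin) 907 and 1080.0 CPM against 731, 764 and 587 CPM (log2 fold change 0.52 ± 0.21). The EMT factor Zeb1 measured 3.36 and 4.16 CPM against 4.79, 11.3 and 12.2 CPM. Of 26 cell cycle genes, 5 were lower and 1 higher, and without DKO rep1 3 were lower. Cdkn1b (p27), an inhibitor of cyclin-dependent kinases, measured 39.4 and 32.2 CPM against 69.1, 66.9 and 70.9 CPM (log2 fold change -0.95 ± 0.18), with WT clones that were almost equal. The D cyclins Ccnd1, Ccnd2 and Ccnd3 all stood below the WT clones, Ccnd2 the farthest at 12.8 and 21.0 CPM against 54.9, 86.7 and 128 CPM. Mki67, a marker of cycling cells, measured 438 and 364 CPM against 413, 466 and 435 CPM. Of 15 stress and immediate early genes, 3 were higher (Egr1, Atf3 and Trib3) and 1 lower (Fosb), and with either DKO clone left out 1 was higher. Egr1 measured 31.3 and 44.0 CPM against 12.2, 23.9 and 22.5 CPM.

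The difference between DKO and WT was also set against that before LIF withdrawal, in a fit over all 24 libraries (15639 genes). The interaction contrast called 0 genes higher and 0 lower (0% each), with a smallest adjusted p-value of 0.304, for Gfpt2 (edgeR). At an unadjusted p-value under 0.05 with a change over 2-fold it held 295 genes higher and 280 lower, and DESeq2 called 13 and 7. With the clone as a block, since the DKO and WT clones are the same at both days, 3 were called higher and 0 lower. Gfpt2 measured 117 and 108 CPM in DKO and 98.9, 113 and 114 CPM in WT at D0, where the genotypes overlapped, and its interaction was -1.33 ± 0.25 (log2). For Dnmt3l the interaction was 2.04 ± 0.48, and for Bmp7 -1.85 ± 0.46 (adjusted p = 0.372 and 0.372, edgeR). Of the germline genes described above with these values, Brdt, Mov10l1 and Ddx4 had both DKO clones above all WT clones at D0 too. Brdt measured 0.695 and 0.751 CPM in DKO and 0.469, 0.382 and 0.656 CPM in WT at D0. Mov10l1 measured 23.3 and 27.8 CPM against 19.5, 15.0 and 19.2 CPM, and Ddx4 40.0 and 47.9 CPM against 33.3, 26.6 and 34.25 CPM. Mael overlapped there, at 17.3 and 15.8 CPM against 20.8, 11.0 and 15.1 CPM. Egln3 stood lower in DKO at D0 as well, at 7.60 and 10.5 CPM against 29.6, 25.7 and 26.3 CPM.

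DKO was also compared with each single knockout at D6 in the same fit. Against Tet1-/-, 0 genes were called in either direction (0% each), with a smallest adjusted p-value of 0.705, and 133 genes were higher and 155 lower at an unadjusted p-value under 0.05 with a change over 2-fold (edgeR). DESeq2 called 1 higher and 2 lower. Against Tet2-/-, 983 genes (6.37%) were called higher in DKO and 483 (3.13%) lower, and the counts were 202 and 44 without DKO rep1 and 450 and 134 without DKO rep2. Among the called genes Gata6 was higher in DKO by 4.06 ± 0.90 (log2, adjusted p = 0.016, edgeR), and it measured 0.788 and 0.476 CPM in Tet2-/-. T was higher by 3.72 ± 0.68 and Igf2 by 2.74 ± 0.68 (adjusted p = 0.00793 and 0.024, edgeR), at 13.4 and 5.42 CPM and 21.6 and 25.1 CPM in Tet2-/-. Mael and Brdt were higher by 3.095 ± 0.60 and 2.48 ± 0.67 (adjusted p = 0.00932 and 0.033, edgeR). Ptch1, Sfrp1 and Ndufa4l2 were lower in DKO than in Tet2-/-, with log2 fold changes of -2.09 ± 0.21, -2.92 ± 0.29 and -3.22 ± 0.42. Ddx4 and Dppa2 were not called. These comparisons share the DKO libraries with that against WT.

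**Figure D4:**
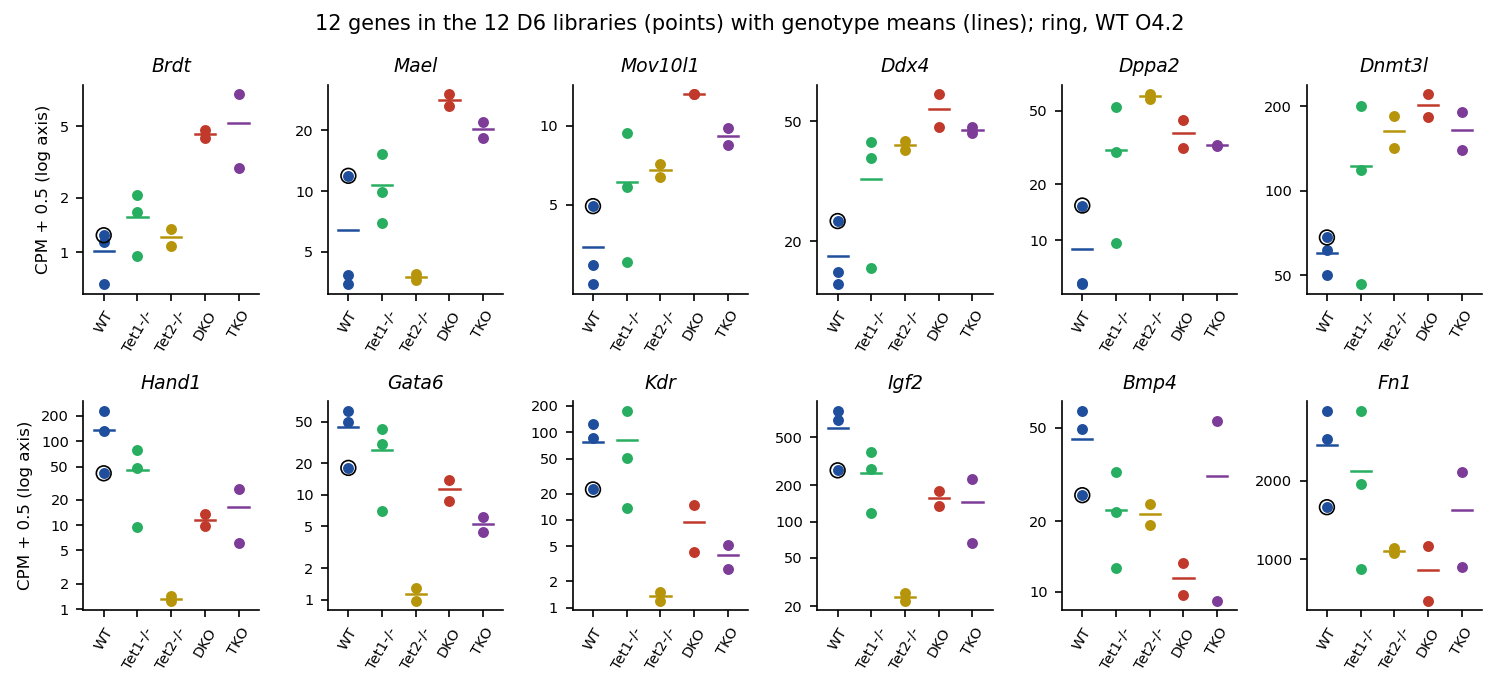
Level of 12 genes in all 12 D6 libraries (CPM + 0.5, log axis), with a point per clone, a line at each genotype's mean, and a ring around WT O4.2. Brdt and Mael are higher in both DKO clones than in every WT, Tet1-/- and Tet2-/- clone, as they are in both TKO clones (Brdt 2.43 and 7.07 CPM, Mael 17.9 and 21.5 CPM), and Hand1, Gata6, Kdr and Igf2 are lower in DKO than in every WT clone and higher than in both Tet2-/- clones.

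Chromosomes as a whole lay close together in the groups. With 14227 genes placed on 1 chromosome (GENCODE vM1), the median of a chromosome's genes in DKO less that in WT ran from -0.12 (chromosome 6) to 0.06 (chromosome 13) on the log2 scale. In single libraries, DKO rep2 stood at 0.14 on chromosome 8 and WT O4.1 at -0.16 on chromosome 11, as medians of log2(CPM + 0.5) less the WT mean of each gene and the median of the autosomes.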

How the data were processed

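RNA-seq was performed by the authors on poly(A) RNA of 24 ESC cultures (12 at D0, 12 after 6 days of LIF withdrawal) with paired 38-base reads, mapped to mm9 with STAR 2.5.1. The deposited values are raw counts per RefSeq transcript, named by gene symbol, in 1 table per day. By the name of the deposited tables, the counts come from featureCounts, and its version and strand setting are not given in the sources used here, so overlapping and antisense genes cannot be separated. Spike-in RNA was added by the authors, but no spike-in lines were used here.

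Of 31928 lines, the first line per symbol was kept (22926 symbols, of which 4911 had more than 1 line). DKO and WT at D6 were compared with edgeR 4.0.16 (R 4.3.3) by a quasi-likelihood fit over the 12 D6 libraries with 1 coefficient per genotype, TMM scaling and a minimum count of 10 (filterByExpr). A call required more than a 2-fold change and an adjusted p-value (Benjamini-Hochberg) below 0.05. DESeq2 1.42.0 and limma 3.58.1 served as alternatives, beside other scalings, filters, lines per symbol, a block and the omission of single libraries. The fit was tested on simulated data. No libraries were alike within sampling noise.

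Named genes were the 12 per direction with the smallest unadjusted p-value among those over 2-fold, at a mean of 1 CPM or more in DKO or WT and without overlap between groups, the 6 per direction with the largest fold change at this level and an unadjusted p-value under 0.05, up to 4 per list by p-value, and Tet1, Tet2, Tet3, Pou5f1, Nanog, Sox2, Sall4, T, Gata6 and Cdx2. Other members of the lists are named to complete a count or as common markers, and were chosen after their values were seen. Counts, medians and sums over a list cover its tested members. The compared groups and the 26 gene lists were chosen with earlier results of these data known. Some genes that this rule names are not reported here.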

Additional observations from a re-analysis of the deposited data

How the results depend on the processing

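The number of genes called between DKO and WT depended on the method. edgeR called 0, DESeq2 99 higher and 86 lower, limma voom with quality weights per genotype 43 and 37, and edgeR on the DKO and WT libraries alone 2 (Dnmt3l and Nefl) and 1 (Gfpt2). Leaving out 1 library gave 0 to 6 higher, the 6 without WT O4.2, and 0 lower. Genes at an unadjusted p-value under 0.05 and over 2-fold numbered 264 to 580 higher and 258 to 557 lower when 1 library was left out, with 258 lower without either DKO clone. Counts of genes without overlap were 2613 to 3009 above and 2658 to 2886 below under other scalings, filters and lines per symbol. Against Tet1-/-, DESeq2 called 1 and 2. Against Tet2-/-, voom called 1717 higher and 882 lower, and leaving out 1 library gave 202 to 1097 and 44 to 575. The interaction with the day gave 13 and 7 by DESeq2, 8 and 7 by voom, 4 and 1 on DKO and WT libraries alone, 3 and 0 with the clone as replicate block, and 0 to 7 in each direction with 1 library left out (7 without WT O4.2). The cause of these differences was not tested.

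Of 1753 log2 fold changes of named genes under 14 other settings, 1743 kept their sign. The others were Nanog (-0.047 without DKO rep1, -0.063 without WT O4.1; range with 1 library left out -0.063 to 0.57), Sox2 (0.107 under voom, 0.088 with the replicate block, 0.62 without WT O4.2; range -0.32 to 0.62), T (0.14 without DKO rep1, 0.12 without WT O4.13; range -0.42 to 0.14) and Tet1 (-0.040 under voom, -0.51 without DKO rep2, -0.0098 without WT O4.13; range -0.51 to 0.44). Replicate numbers at D6 only name the libraries. Same-numbered DKO and WT libraries deviated with correlations of 0.298 and 0.276 (2 pairs), and with this block 0 genes were called in either direction. A fit on DKO and WT libraries alone was not possible for the comparisons with Tet1-/- and Tet2-/-. With 2 DKO clones the median interval was ± 0.48 on the log2 scale around the estimate. In many genes an estimate smaller than this could not be told from no change.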
